A study of Mus musculus with 6 samples.

Results

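The 35 genes described here encode the integrins that attach keratinocytes to their matrix, the proteins of the hemidesmosome and the chains of the basement membrane under the epidermis. They were chosen by name, as the rows of the 6 count tables whose Ensembl identifier carries 1 of the listed symbols, and all 35 were found among 41214 identifiers. They comprise 10 integrin subunits of keratinocytes (Itga2, Itga3, Itga6, Itga9, Itgav, Itgb1, Itgb4, Itgb5, Itgb6 and Itgb8), 2 other integrin subunits (Itga1 and Itga5), 4 hemidesmosome genes (Col17a1, Dst, Plec and Cd151) and 8 laminin chains (Lama1, Lama3, Lama4, Lama5, Lamb1, Lamb2, Lamb3 and Lamc1). The remaining genes are Nid1, Nid2, Hspg2 and Agrn, 5 collagens (Col4a1, Col4a2, Col4a5, Col4a6 and Col7a1), Fermt1 and Frem2. All 35 passed the filter on low counts that kept 13704 genes for testing. The RNA came from epidermis of C57BL/6 mice at postnatal day 4, freed from the skin with trypsin, with 3 libraries of the genotype wt and 3 labelled ARPC4 ko (ko below). The Arp2/3 complex, of which Arpc4 is a subunit, starts branched networks of actin, and the series title connects the knockout of this complex in epidermis with a psoriasis-like disease. The labels name no deleted part of the gene, no Cre driver and no number of animals, and they do not say whether the replicates are separate animals. Both sexes occur among the libraries of each genotype, as given below, so that those of 1 genotype came from more than 1 animal. Whether each library is a separate animal is not given, and part of the spread that the p-values rest on may be technical.

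Each library held between 17561294 and 22659511 counts in genes, and levels are given as CPM, the counts scaled to a common library total, after TMM normalization. Across all genes the edgeR quasi-likelihood test called 30 higher in ko and 0 lower at a Benjamini-Hochberg adjusted p under 0.05, which is 0.219% of those tested. Arpc4 itself lay at 72.6, 82.5 and 73.1 CPM in wt and 67.6, 65.6 and 64.5 CPM in ko (replicates 1 to 3 in this order throughout), with no overlap and an uncalled log2 fold change of -0.21 (adjusted p = 0.469). These counts cannot check the deletion, since the deleted part is not given. The keratins of the basal layer, Krt5 and Krt14, were present in every library. Replicates 1, 2 and 3 were numbered from the title marks I, II and Tryp, which both groups share. The labels do not say that these marks stand for pairs. The titles of replicates 1 and 2 in each group carry a date and those of replicate 3 do not. By Xist and the Y-linked Ddx3y, wt replicates 1 and 2 and ko replicate 2 were male and the other 3 libraries female. The summed CPM of 8 fibroblast markers was 53.4 to 158 in wt and 164 to 730.0 in ko, and that of 8 endothelial markers 3.51 to 4.09 and 11.4 to 22.4, in both cases without overlap. In such bulk RNA, fewer cells of a type and less RNA per cell cannot be told apart.

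Integrins are receptors of an alpha and a beta subunit that bind matrix proteins outside the cell and the cytoskeleton inside it. Basal keratinocytes sit on laminin-332 through the integrin α6β4, which joins keratin filaments in the hemidesmosome, and through α3β1, which joins actin. The basement membrane below is built from networks of laminin and type IV collagen that nidogens and heparan sulfate proteoglycans link, and type VII collagen anchors it to the dermis. The αv integrins with β6 or β8 are known for releasing active TGF-β, and α5β1 binds fibronectin. Both β6 and α5 are known to be low in resting epidermis and raised in wounds.

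In many of these genes the libraries of 1 genotype differed more than the genotypes did, though in Itgb6, Itga5, Nid1 and Col4a1 the genotypes did not overlap. In 27 of the 35 genes wt replicate 2 was the lowest of the 6 libraries, against 30.4% of all genes tested, and in 21 ko replicate 3 was the highest, against 24.0%. In 19 members wt replicate 3 stood at least 4-fold above wt replicate 2, against 3.99% of all genes. Of 6 basal markers wt replicate 2 was lowest in 6 and ko replicate 3 highest in 4. In 4 of them wt replicate 3 stood at least 4-fold above wt replicate 2. Krt5, a keratin of the basal layer, lay at 3424, 846 and 4301 CPM in wt and 1292, 1677 and 5443 CPM in ko, and its partner Krt14 at 1982, 814 and 2361 CPM in wt and 1138, 2053 and 3519 CPM in ko. The summed CPM of 6 basal markers (Krt5, Krt14, Krt15, Trp63, Dlk2 and Cdh3) ran from 2024 to 9026 in wt and from 3089 to 10530 in ko, so that the groups overlapped. The part of the basal share of each library in the differences between genotypes was not tested, but a fit with the mean log2 level of these markers as a covariate is given beside the plain fit.

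**Figure D1:**
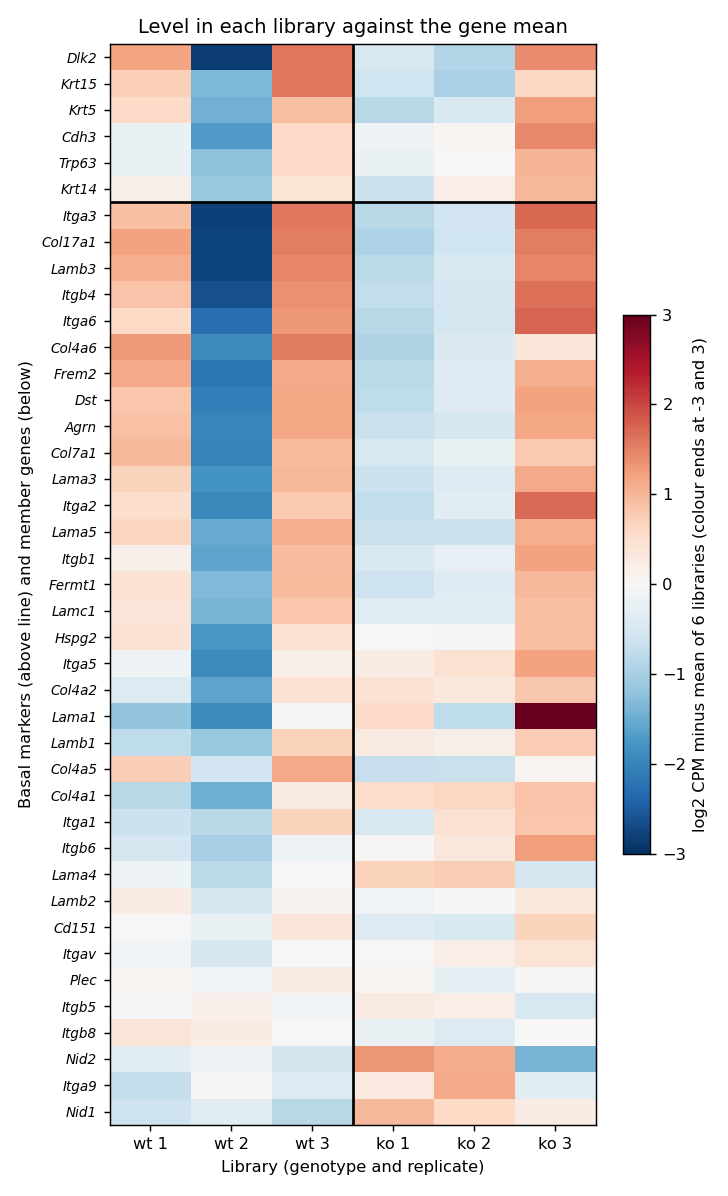
Heat map of log2 CPM minus the mean of the 6 libraries, for 6 basal markers (above the line) and the 35 member genes (below it, ordered by the ratio of wt replicate 3 to wt replicate 2); columns are the libraries by genotype and replicate. From Itga3 down to Hspg2 the columns for wt 2 are blue and those for wt 3 and ko 3 red or pink, as in the basal markers, while Itgb6, Col4a1 and Nid1 separate the genotypes.

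Of the 35 members 0 passed the test between genotypes over all genes with edgeR, beside 0.219% of all genes called. Before adjustment, 4 members were higher in ko at p under 0.05 (Itgb6, Lama1, Nid1 and Col4a1), beside 7.98% of all genes, and 1 lower (Itgb8), beside 5.25%. DESeq2 called 1 member, Nid1, beside 4.09% of its genes. The groups did not overlap in 4 members, all higher in ko (Itgb6, Itga5, Nid1 and Col4a1), beside 11.3% of all genes that were higher without overlap. A count of 4 in 35 lies close to that share. The log2 fold changes were above 0 in 18 members, against 53.1% of all genes, and below 0 in 17, with a median of 0.02, which is also the median of all genes tested. A value in parentheses without a unit is the log2 fold change of ko over wt by edgeR, throughout. Standard errors (SE) of the members were wide, with a median of 0.59 against 0.22 over all genes. With the basal marker level as a covariate the median SE of the members was 0.17 (0.15 over all genes), and 6 members were called higher in ko (Itgb6, Itga5, Lama1, Nid1, Col4a1 and Col4a2) and 1 lower (Col4a5), beside 4.18% and 2.36% of all genes. That fit leaves 3 residual degrees of freedom, and its covariate was measured in the same libraries. When wt replicate 2 and ko replicate 3, the wt library lowest and the ko library highest in basal markers, were left out together, a choice made after the values were seen, 17 members were called, 2 higher (Nid1 and Nid2) and 15 lower, beside 1.2% and 0.925% of all genes. Leaving out the lowest wt and the highest ko library lowers by construction the difference of every gene that follows these markers, and without either library alone 0 members were called.

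**Figure D2:**
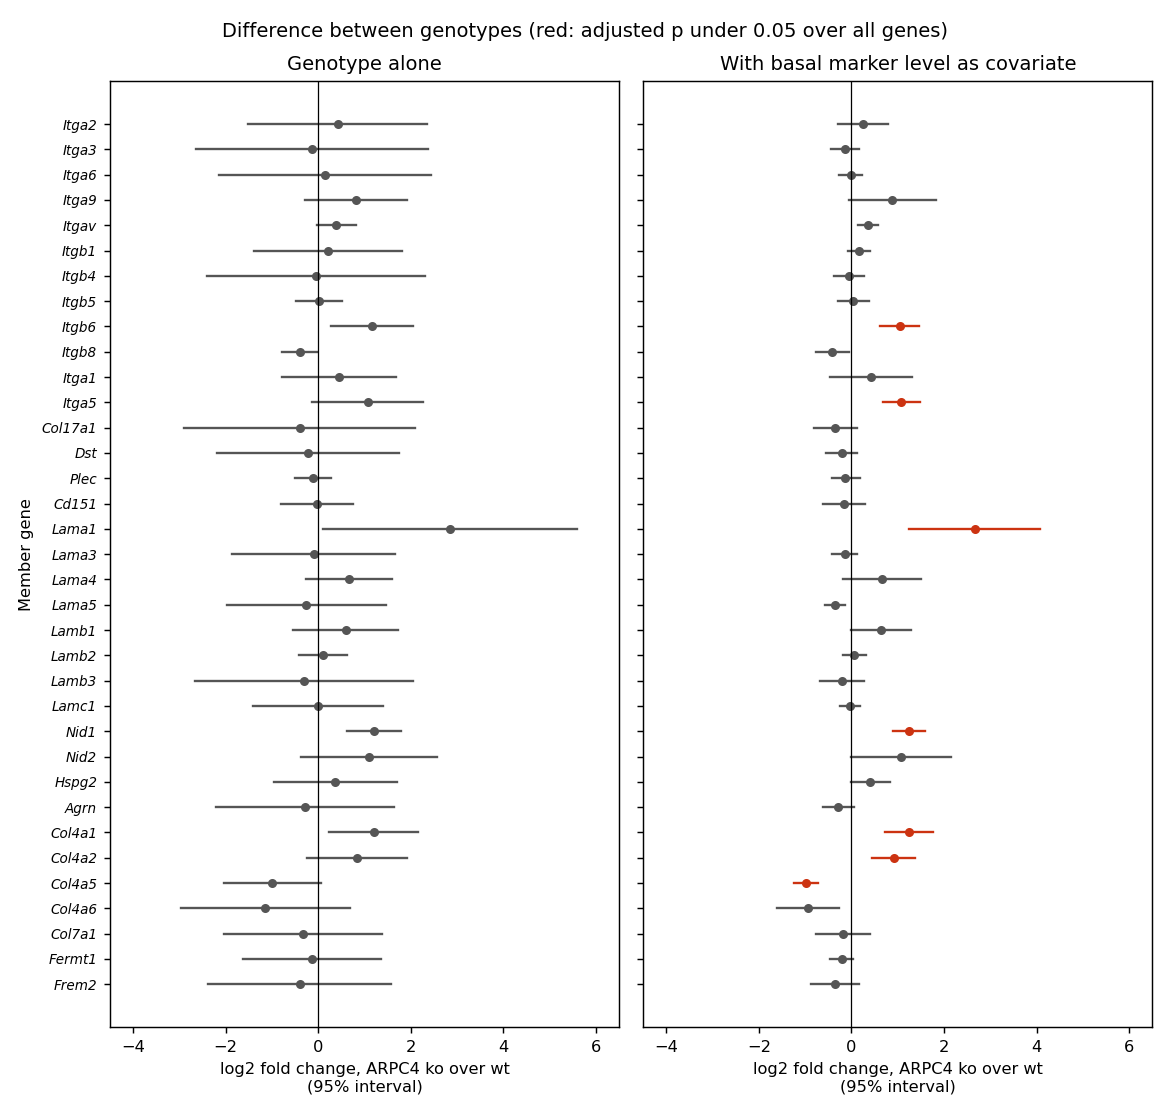
Log2 fold change of ko over wt with its 95% interval for the 35 members, in the fit with genotype alone (left) and in the fit with basal marker level as a covariate (right); red marks an adjusted p under 0.05 over all genes. No gene is red on the left, and on the right Itgb6, Itga5, Lama1, Nid1, Col4a1 and Col4a2 are red above 0 and Col4a5 below 0.

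The 10 keratinocyte integrins, like the other 25 members, had differences on both sides of 0. Of the 10 integrins 0 passed over all genes, 7 had log2 fold changes above 0 and their median was 0.18 (range -0.40 to 1.15), and of the other 25 again 0 passed, 11 lay above 0 and the median was -0.03 (range -1.14 to 2.84). No difference between these sets was tested, since the split is a description of chosen genes. Per kilobase of exon Itga6 was the most abundant alpha subunit in 5 of 6 libraries, with Itgav above it in wt replicate 2. Itgb5 was the most abundant beta subunit in 5 of 6, at 35.4 ± 3.01 CPM per kilobase in wt and 36 ± 9.35 in ko (SD, n = 3), and Itgb1 and Itgb4 were above it in ko replicate 3. Below it Itgb1 and Itgb4 lay at 13.8 ± 9.72 and 13.1 ± 10.7 CPM per kilobase in wt, a gap well inside their spread between libraries. Within each library Itgb1 was above Itgb4, except in wt replicate 1 (13.8 against 15.5 CPM per kilobase). Itga9, a subunit of a tenascin receptor, and Itga1 and Itga2, subunits of collagen receptors, were the lowest alpha subunits in every library, with means of 0.0749, 0.0516 and 0.453 CPM per kilobase in wt.

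The integrins of the hemidesmosome differed by library more than by genotype. Itga6, the alpha subunit of α6β4 (ENSMUSG00000027111, chromosome 2, 71745616 to 71858416, plus strand, mm10), lay at 133, 18.3 and 217 CPM in wt and 49.8, 61.6 and 297 CPM in ko. Its beta subunit Itgb4 lay at 109, 9.68 and 157 CPM in wt and 36.2, 42.3 and 188 CPM in ko. In both genes ko replicates 1 and 2 sat between wt replicate 2 and wt replicate 1, and ko replicate 3 was above all others. The log2 fold changes were 0.15 (SE 0.96, 95% interval -2.15 to 2.44, adjusted p = 0.971) for Itga6 and -0.05 (SE 0.99, adjusted p = 0.991) for Itgb4 by edgeR, so that changes of more than 2 on the log2 scale in either direction remained inside the interval. Within a library the 2 subunits kept step, and the ratio of Itgb4 to Itga6 per kilobase stayed between 0.681 and 1.05 while the genes ranged over 16.2-fold and 19.4-fold. With the basal covariate the values were -0.02 (95% interval -0.26 to 0.23) and -0.05 (95% interval -0.37 to 0.27), both uncalled.

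The integrin α3β1 showed the same order of libraries. Itga3, the laminin-binding alpha subunit, lay at 56.1, 4.36 and 89.9 CPM in wt and 16.9, 20.3 and 99.5 CPM in ko, and the common partner Itgb1 at 56.1, 16.9 and 96.2 CPM in wt and 37.2, 43.1 and 117 CPM in ko. Itga3 had the largest range of all keratinocyte integrins, 22.8-fold between its highest and lowest library, and Itgb1, which pairs with many alpha subunits, ranged over 6.91-fold. Neither passed the test, at -0.14 (SE 1.05) and 0.22 (SE 0.67) on the log2 scale. Per kilobase Itgb1 exceeded Itga3 by 5.41-fold in wt replicate 2 and by 1.4 to 3.08-fold in the other libraries. Itga2, a collagen receptor, ranged from 0.745 to 9.13 CPM and also had its lowest value in wt replicate 2 and its highest in ko replicate 3.

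**Figure D3:**
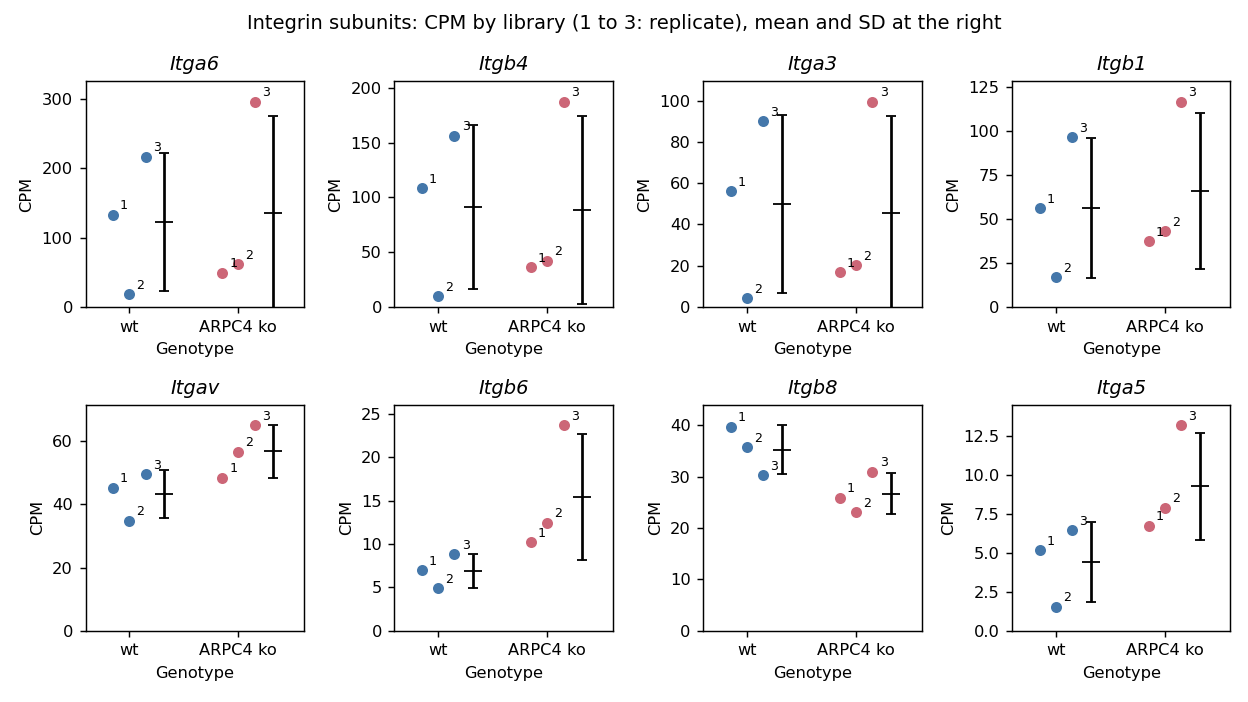
CPM of 8 integrin subunits in each library, with the replicate number beside each point and the group mean and SD as a bar at its right; the lower end of the SD bars of Itga6 and Itga3 in ko falls below 0 and is cut at the axis. In Itga6, Itgb4, Itga3 and Itgb1 the replicates of a genotype spread widely, whereas in Itgb6 and Itga5 the 3 ko points lie above the 3 wt points.

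Among the αv integrins and their beta partners, Itgb6 and Itgb8 had differences of opposite sign. Itgb6 (ENSMUSG00000026971, chromosome 2, 60598292 to 60722643, minus strand), the beta subunit of the TGF-β-activating αvβ6, lay at 7.0, 4.95 and 8.84 CPM in wt and 10.2, 12.5 and 23.7 CPM in ko. All 3 ko libraries were above all 3 wt libraries, the closest pair being wt replicate 3 and ko replicate 1. Its log2 fold change, 1.15 (SE 0.37, 95% interval 0.27 to 2.04), had an unadjusted p of 0.0178 and did not pass over all genes (edgeR, adjusted p = 0.256). It passed with the basal covariate (1.04, SE 0.18, adjusted p = 0.0213) and with a collection covariate, which codes whether the title carries a date (adjusted p = 0.0318), where 4 members were called beside 5.17% of all genes. Without ko replicate 3, the highest library, the value was 0.67 and uncalled. Itgb8, the other TGF-β-activating partner, lay at 39.8, 35.8 and 30.3 CPM in wt and 26, 23.1 and 31 CPM in ko, with wt replicate 3 just below ko replicate 3. Its log2 fold change of -0.40 (SE 0.16, unadjusted p = 0.04) did not pass over all genes (adjusted p = 0.344).

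Taken as a ratio within each library, Itgb6 to Itgb8 per kilobase was 0.274, 0.215 and 0.453 in wt and 0.611, 0.841 and 1.19 in ko. The groups did not overlap, and β6 exceeded β8 only in ko replicate 3. This ratio is 1 of 18 that were computed for pairs chosen with the values known, and none was tested. The shared alpha subunit Itgav lay at 45.3, 34.8 and 49.7 CPM in wt and 48.5, 56.8 and 65.1 CPM in ko, with an overlap of wt replicate 3 and ko replicate 1 (0.39, SE 0.17, adjusted p = 0.409). Itgb5, a vitronectin receptor subunit, lay between 89.6 and 150.4 CPM, with both ends in ko (0.02, 95% interval -0.47 to 0.52). Itga9 was at or below 1.6 CPM in every library.

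Itga5 (ENSMUSG00000000555, chromosome 15, 103344286 to 103366763, minus strand), the fibronectin receptor subunit, is given in detail because its groups did not overlap. It lay at 5.2, 1.54 and 6.48 CPM in wt and 6.76, 7.92 and 13.2 CPM in ko, so that every ko library exceeded every wt library, by a margin of 6.48 against 6.76 CPM at the closest. The log2 fold change of 1.07 (SE 0.51) did not pass (edgeR, adjusted p = 0.44), and with the basal covariate it was 1.08 (SE 0.17, adjusted p = 0.0154). Itga1, a collagen receptor subunit, stayed at or below 1.84 CPM in every library and its groups overlapped (0.45, adjusted p = 0.804).

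The stretches before the start sites of Itgb6 and Itga5 are printed because these were the integrin genes whose groups did not overlap. They are RefSeq sequence on GRCm38.p6, the assembly of mm10, from up to 250 bases before the RefSeq start site. This site can differ from the gene ends given with each gene. Bases that GENCODE M21 places in an exon are left out (chr2:60722644-60722853, minus strand, 210 bases, and chr15:103366792-103367041, minus strand, 250 bases). Capitals mark matches on either strand to 3 motifs, AP-1 (TGANTCA), the CCAAT box (CCAAT) and the GC box (GGGCGG), which do not overlap each other in the windows printed. Promoter windows were found for 27 of the 35 members.
Itgb6: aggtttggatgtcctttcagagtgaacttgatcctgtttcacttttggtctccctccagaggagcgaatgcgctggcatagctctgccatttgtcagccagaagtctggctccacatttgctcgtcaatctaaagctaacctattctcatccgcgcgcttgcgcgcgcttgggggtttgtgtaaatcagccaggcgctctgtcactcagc
Itga5: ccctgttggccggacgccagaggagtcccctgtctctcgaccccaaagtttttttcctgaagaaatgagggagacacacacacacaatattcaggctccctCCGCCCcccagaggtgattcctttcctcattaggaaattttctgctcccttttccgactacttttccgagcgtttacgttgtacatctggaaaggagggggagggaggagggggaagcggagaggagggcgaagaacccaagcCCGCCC
The Itgb6 stretch held none of the 3 motifs, and the same 210 bases of all 32851 RefSeq windows held them in 5.84% (AP-1), 29.9% (CCAAT) and 26.7% (GC box). The Itga5 stretch held 2 GC boxes, which 32.7% of windows of that length held at least once, and neither of the other motifs. A missing match says only that these letters are not in the window.

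Among the hemidesmosome genes, the transmembrane collagen was the one that varied most between libraries. Col17a1 (ENSMUSG00000025064, chromosome 19, 47646344 to 47692094, minus strand), collagen XVII or BP180, which spans the membrane beside α6β4, lay at 662, 42.1 and 833 CPM in wt and 151, 189 and 821 CPM in ko. The highest library was wt replicate 3 and the lowest wt replicate 2, 19.8-fold apart, so that the log2 fold change of -0.40 had an SE of 1.05 (edgeR, adjusted p = 0.921). Dst, whose epidermal form is the plaque protein BP230, ranged over 9.64-fold in the same order of wt libraries. Plec, which encodes the keratin linker plectin, ranged only from 322 to 466 CPM, and its interval (95% interval -0.51 to 0.28) was among the narrowest of the members. Cd151, a tetraspanin that binds α3β1 and α6β4, ranged from 30.9 to 66.8 CPM. All 4 hemidesmosome genes had log2 fold changes below 0, from -0.40 to -0.03, and 0 passed. Dst and Plec are also used by other tissues in other isoforms, which gene counts do not separate.

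The alpha and beta chains of laminin-332, the main ligand of both laminin-binding integrins in skin, were low and high in the same libraries. Lama3 (ENSMUSG00000024421, chromosome 18, 12333819 to 12583013, plus strand), its alpha chain, lay at 88.6, 16.2 and 111 CPM in wt and 35.5, 42.6 and 123 CPM in ko. Lamb3, its beta chain, lay at 80.7, 5.58 and 104 CPM in wt and 21.7, 27.6 and 105 CPM in ko. In both chains wt replicate 2 was lowest and ko replicate 3 highest. The log2 fold changes were -0.10 and -0.31, with SEs of 0.74 and 0.99, and neither passed. The ratio of Lamb3 to Lama3 per kilobase was 0.561 in wt replicate 2 and 0.993 to 1.52 elsewhere. Lama5 and Lamc1, chains of laminin-511, ranged over 6.12-fold and 4.97-fold, and Lamb2 over 1.77-fold (values of -0.26, 0.00 and 0.10 on the log2 scale, all uncalled).

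The scarce laminin chains were those with values furthest above 0. Lama1 (ENSMUSG00000032796, chromosome 17, 67697259 to 67822647, plus strand), an alpha chain of embryonic basement membranes, lay at 0.264, 0.16 and 0.589 CPM in wt and 0.895, 0.355 and 6.19 CPM in ko. Only ko replicate 3 was far above the rest, and ko replicate 2 was inside the wt range. The fold change on the log2 scale, 2.84 (SE 1.15, 95% interval 0.10 to 5.58, unadjusted p = 0.0441), did not pass over all genes (edgeR, adjusted p = 0.358), and without ko replicate 3 it was 0.85. It was called with the basal covariate (adjusted p = 0.0385) and the collection covariate (adjusted p = 0.033), both of which keep that library. Lama4, an alpha chain of vessel walls, and Lamb1, the beta chain of laminin-511, had values of 0.67 and 0.60, with adjusted p of 0.547 and 0.689. In Lama4 ko replicates 1 and 2 lay above all other libraries and ko replicate 3 was within the wt range. With fibroblast and endothelial markers as a covariate, a fit described with the nidogens, Lama4 turned to -0.50 (SE 0.80).

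Nid1 was the member with the smallest p. Nid1 (ENSMUSG00000005397, chromosome 13, 13437551 to 13512269, plus strand) encodes nidogen-1, which links laminin to type IV collagen, and lay at 6.96, 8.62 and 5.99 CPM in wt and 21, 16.1 and 12.6 CPM in ko. The lowest ko library exceeded the highest wt library, and the means were 7.19 ± 1.33 CPM in wt and 16.6 ± 4.21 CPM in ko (SD, n = 3). The log2 fold change was 1.21 (SE 0.24, 95% interval 0.63 to 1.78, unadjusted p = 0.00172), and over all genes it did not pass with edgeR (adjusted p = 0.101) but did with DESeq2 (adjusted p = 0.00208). It was also called with the basal covariate (1.25, adjusted p = 0.00663) and with the collection covariate (adjusted p = 0.017), and its order of libraries was not that of the basal markers. Nid2, the second nidogen, lay at 1.54, 1.76 and 1.32 CPM in wt and 4.87, 4.2 and 0.734 CPM in ko, high in ko replicates 1 and 2 and below all other libraries in ko replicate 3 (1.09, SE 0.62, adjusted p = 0.534).

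Nidogens are also made by fibroblasts and endothelial cells, and the markers of both were lowest in ko replicate 3 among the ko libraries, as Nid1 and Nid2 were. The summed CPM of the fibroblast markers was 53.4, 127 and 158 in wt and 561, 730.0 and 164 in ko, and that of the endothelial markers 4.09, 3.51 and 3.85 and 20.6, 22.4 and 11.4. Of the 8 fibroblast markers 7, and of the 7 endothelial markers tested 7, were higher at an unadjusted p under 0.05. Higher in ko at that p were 7.98% of all genes, and 0 of these markers passed over all genes with the plain edgeR fit, which did not call Nid1 either. DESeq2 called 5 of the fibroblast and 6 of the endothelial markers higher, beside 4.09% of its genes. The fit with the basal covariate called 2 and 6 of them higher, beside 4.18% of all genes. The defining fibroblast gene Col1a1 lay at 14.1, 27.1 and 32.4 CPM in wt and 132, 141 and 24.4 CPM in ko and the endothelial Cdh5 at 0.264, 0.532 and 0.499 CPM in wt and 4.82, 4.02 and 1.78 CPM in ko, and the only marker of these lists at 0 in a library was Emcn, in wt replicate 2. With the mean log2 level of both lists as a covariate, which itself separated the groups, Nid1 stood at 0.71 (SE 0.53, edgeR adjusted p = 0.881). That fit called 0 members, beside 0.0146% of all genes, and the part of both lists in the result was not tested. In the same fit Nid2 turned to -1.39 (SE 1.26). Mural cells of vessels make these proteins as well. Of 8 mural markers 4 were higher at an unadjusted p under 0.05 and without overlap, beside 7.98% and 11.3% of all genes. One of these markers, Myh11, the smooth muscle myosin, passed over all genes (2.88, edgeR adjusted p = 0.0459). It lay at 0.396, 0.638 and 0.589 CPM in wt and 4.23, 4.97 and 2.83 CPM in ko. The summed CPM of the list, most of it Notch3, overlapped between the genotypes, and the part of these markers in the result was not tested. Hspg2, the proteoglycan perlecan, and Agrn, agrin, ranged over 6.29-fold and 8.82-fold with wt replicate 2 lowest, and neither passed (log2 fold changes of 0.36 and -0.29).

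**Figure D4:**
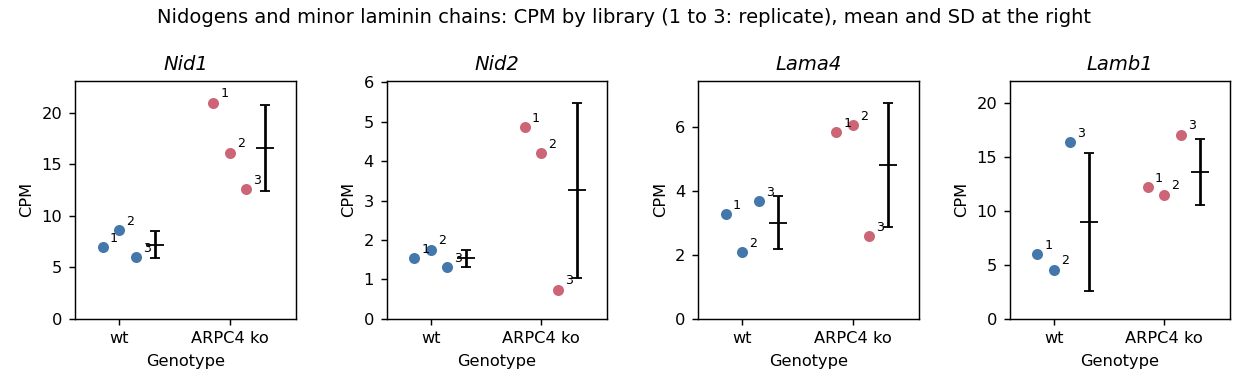
CPM of Nid1, Nid2, Lama4 and Lamb1 in each library, with the replicate number beside each point and the group mean and SD as a bar at its right. The ko points of Nid1 lie above all wt points, whereas ko replicate 3 lies below the wt points in Nid2 and among them in Lama4.

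The stretch before the start of Nid1, the only member that DESeq2 called, is printed with the same marks (chr13:13437352-13437550, plus strand, 199 bases).
Nid1: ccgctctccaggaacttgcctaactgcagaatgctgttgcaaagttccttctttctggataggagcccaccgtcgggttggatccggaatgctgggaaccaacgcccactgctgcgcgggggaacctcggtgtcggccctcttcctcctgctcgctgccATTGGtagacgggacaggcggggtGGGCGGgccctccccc
It held 1 CCAAT box, read on the opposite strand as ATTGG, and 1 GC box, which 28.2% and 24.4% of windows of that length held, and no AP-1 match.

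The log2 fold changes of the type IV collagens had opposite signs in the 2 chain pairs. Col4a1 (ENSMUSG00000031502, chromosome 8, 11198423 to 11312826, minus strand) and Col4a2 encode the ubiquitous network, lie head to head with gene starts 21 bases apart, and lay at 16.9, 10.9 and 35.4 CPM in wt and 43.9, 46.4 and 54.6 CPM in ko, and at 15.1, 6.65 and 27.1 CPM in wt and 26.9, 25.1 and 35.3 CPM in ko, in this order. Every ko library exceeded every wt library in Col4a1, and in Col4a2 wt replicate 3 lay within the ko range. The log2 fold change of Col4a1 was 1.20 (SE 0.40, 95% interval 0.24 to 2.16, unadjusted p = 0.0215) and did not pass over all genes (edgeR, adjusted p = 0.275). With the basal covariate Col4a1 (1.25, adjusted p = 0.0228) and Col4a2 (0.91, adjusted p = 0.0394) were called higher. Col4a1 was also called with the collection covariate (1.33, edgeR adjusted p = 0.0459), beside 5.17% of all genes. In the dated libraries alone it was called as well (1.68, edgeR adjusted p = 0.0207), beside 227 of 13812 genes. Fibroblasts and endothelial cells also make this network, and their markers were higher in the ko libraries as given above. Col4a1 and Col4a2 were highest in ko replicate 3, the ko library lowest in these markers. With these markers as a covariate, which itself separated the groups, Col4a1 stood at 0.99 (SE 0.80), and their part in the difference was not tested.

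Col4a5 and Col4a6, which form the network typical of epithelia such as the epidermis, are given in detail because they lay the other way. Col4a5 (ENSMUSG00000031274, chromosome X, 141475385 to 141689234, plus strand) lay at 51.4, 20.5 and 67.8 CPM in wt and 18.9, 19.4 and 31.9 CPM in ko, and Col4a6 at 24.3, 2.71 and 29.7 CPM in wt and 5.37, 7.45 and 12.9 CPM in ko. The ko libraries were below wt replicates 1 and 3 in both genes, while wt replicate 2, the library lowest in basal markers, was within or below the ko range. The log2 fold changes were -0.99 (SE 0.44, 95% interval -2.03 to 0.05, adjusted p = 0.402) and -1.14 (SE 0.77, adjusted p = 0.61), and neither passed. With the basal covariate Col4a5 was called lower (-0.99, SE 0.11, 95% interval -1.24 to -0.73, adjusted p = 0.00573) and Col4a6 was not (-0.94, adjusted p = 0.0997). Relative to Krt5, per kilobase, Col4a5 stood at 0.00491, 0.00794 and 0.00515 in wt and 0.00479, 0.00378 and 0.00192 in ko, with no overlap but a gap of only 0.00491 against 0.00479. Like the ratio of Itgb6 to Itgb8, this ratio is of a pair chosen with the values known and was not tested. The ratios of Itga6, Itgb4, Col17a1 and Itgb1 to Krt5 overlapped between the genotypes. Col4a5 and Col4a6 are X-linked. Within the female libraries Col4a5 lay at 67.8 CPM in wt and 18.9 and 31.9 CPM in ko. In the male libraries it lay at 51.4 and 20.5 CPM in wt and 19.4 CPM in ko. With sex as a covariate, a fit that called 0 members beside 0.452% of all genes, its value was -1.16 (adjusted p = 0.295).

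The ratio of Col4a1 to Col4a5 per kilobase was 0.295, 0.476 and 0.47 in wt and 2.09, 2.15 and 1.54 in ko. Every wt library thus held more Col4a5 and every ko library more Col4a1. The ratio of Col4a2 to Col4a6 was 0.751, 2.95 and 1.1 and 6.03, 4.05 and 3.29, again without overlap but with wt replicate 2 near the ko range. Both ratios are within a library and so do not depend on its scaling, and they belong to the 18 computed, with no test. Col7a1, type VII collagen of the anchoring fibrils, was the most abundant of the 5 collagens per kilobase in all 6 libraries and ranged from 32.6 to 257 CPM, both in wt (-0.33, SE 0.72, adjusted p = 0.905).

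**Figure D5:**
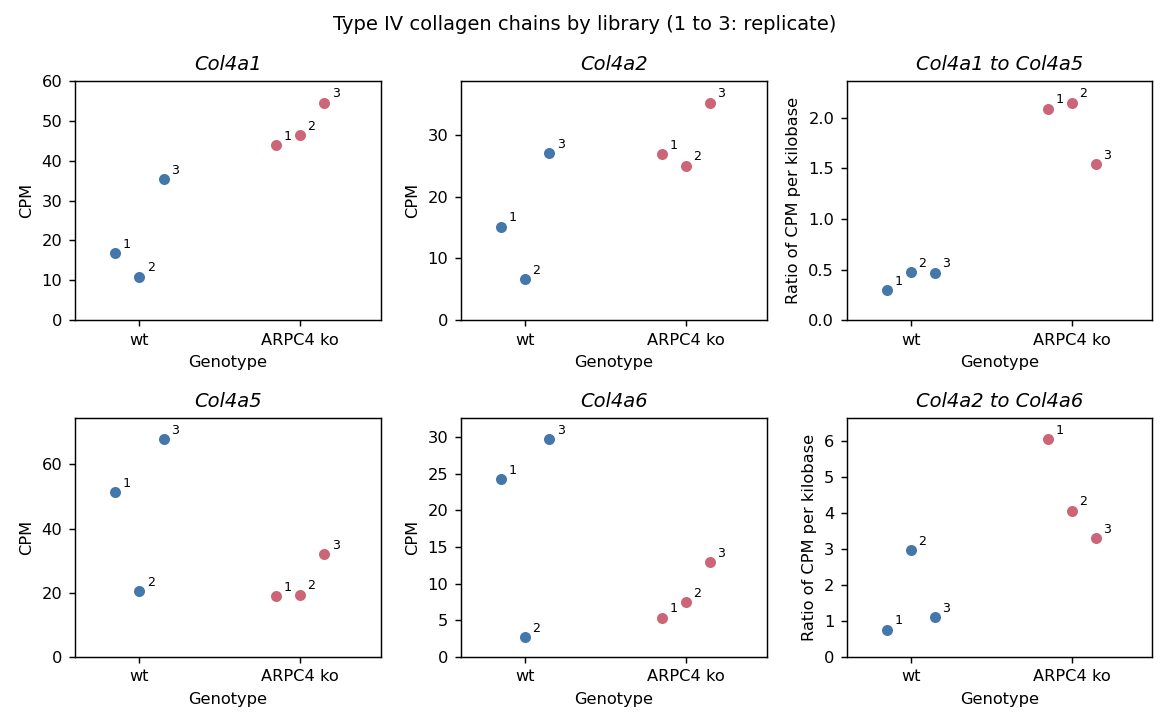
CPM of 4 type IV collagen chains in each library (left and middle columns) and the ratio of 2 chain pairs per kilobase of exon (right column), with the replicate number beside each point. The ratio of Col4a1 to Col4a5 is at most 0.476 in all wt libraries and at least 1.54 in all ko libraries.

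Col4a5 and Col4a6 are transcribed away from each other, with gene starts 1309 bases apart, and the stretches before both starts are printed because the pair lay on the same side of 0 (chrX:141475169-141475384, plus strand, 216 bases, and chrX:141474077-141474326, minus strand, 250 bases), with the marks as above.
Col4a5: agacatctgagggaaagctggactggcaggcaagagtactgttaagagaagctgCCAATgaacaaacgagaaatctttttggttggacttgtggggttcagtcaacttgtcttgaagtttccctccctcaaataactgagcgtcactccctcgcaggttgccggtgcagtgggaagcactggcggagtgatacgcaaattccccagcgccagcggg
Col4a6: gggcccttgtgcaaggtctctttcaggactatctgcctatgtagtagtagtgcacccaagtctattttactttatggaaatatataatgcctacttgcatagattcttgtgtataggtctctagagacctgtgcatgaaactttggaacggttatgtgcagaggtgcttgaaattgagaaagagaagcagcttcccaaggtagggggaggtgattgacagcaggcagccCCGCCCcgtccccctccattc
The Col4a5 stretch held 1 CCAAT box, as 30.5% of windows of its length did, and the Col4a6 stretch 1 GC box, as 32.7% did. Neither held an AP-1 match.

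Fermt1 encodes kindlin-1, which activates β integrins in keratinocytes, and Frem2 a protein of the Fraser complex in the basement membrane. Fermt1 ranged from 5.96 to 29 CPM and Frem2 from 7.71 to 76.2 CPM, both lowest in wt replicate 2, with uncalled log2 fold changes of -0.14 (adjusted p = 0.957) and -0.40 (adjusted p = 0.899).

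Other genes of the pathway were taken from 4 lists: other integrin subunits, other basement membrane genes, integrin adaptors and provisional matrix ligands. Of their 74 genes 72 were tested and 0 passed over all genes with edgeR. Before adjustment, 12 were higher in ko and 2 lower at p under 0.05, beside 7.98% and 5.25% of all genes. DESeq2 called 7, all higher (Itga7, Itga2b, Itgb3, Lama2, Col15a1, Fbln1 and Fbn1), beside 4.09% of its genes. The medians of the 4 lists were 0.50, 0.11, 0.04 and 0.60, beside 0.02 for all genes. Among 13 other integrin subunits tested, 3 were higher at the unadjusted p. Itga7, a laminin receptor known from muscle, lay at 2.64, 1.65 and 1.41 CPM in wt and 4.77, 6.98 and 5.4 CPM in ko (1.58, SE 0.31, edgeR adjusted p = 0.0979). Itgb3, the partner of αv and of the platelet subunit Itga2b, lay at 0.264, 0.479 and 0.317 CPM in wt and 2.04, 1.12 and 1.15 CPM in ko (2.04, adjusted p = 0.105), and Itga2b had a value of 1.21. In all 3 genes, which were named for their small p, every ko library exceeded every wt library, beside 11.3% of all genes. Endothelial markers were higher in the same ko libraries, and their part in these values was not tested. With fibroblast and endothelial markers as a covariate the values were 1.91 for Itga7, 1.47 for Itgb3 and 2.01 for Itga2b. None was called (edgeR, adjusted p = 0.881 in each), but this covariate separated the groups and its fit called only 0.0146% of all genes.

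Of 21 other basement membrane genes 5 were higher at the unadjusted p and none was lower, beside the same 7.98% and 5.25% of all genes. Fbln1, which encodes fibulin-1, a matrix protein that binds nidogen and laminin, lay at 37, 34.3 and 30.9 CPM in wt and 53.5, 59 and 64.3 CPM in ko, and had the smallest p of all pathway genes (0.79, SE 0.12, edgeR adjusted p = 0.0688). The lowest ko library exceeded the highest wt library by 53.5 against 37 CPM. Lama2, the laminin chain of muscle and nerve, and Col15a1, of vessel and dermal basement membranes, had values of 1.64 and 1.96, and Smoc1 had 0.93. All but Fbln1 of these 4 stayed at or below 8.85 CPM, and the fibroblast markers were higher in the same ko libraries. With the fibroblast and endothelial covariate Lama2 stood at 0.25, Col15a1 turned to -0.27, and Smoc1 and Fbln1 stood at 0.89 and 1.1, all uncalled. That fit called 0.0146% of all genes with a covariate that separated the groups, and the part of these markers was not tested.

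Among 28 adaptor and signalling genes tested, 1 was higher and 2 were lower before adjustment, beside 7.98% and 5.25% of all genes. Actn1, α-actinin, which crosslinks actin at adhesions, lay at 257, 312 and 170.4 CPM in wt and 159.7, 127 and 149 CPM in ko (-0.76, SE 0.23, adjusted p = 0.231). The tetraspanins Cd82 and Cd81, partners of integrins, had values of -0.71 and 0.82 (adjusted p = 0.27 and 0.356). Actn1 and Cd82 were lower in ko without overlap. The share of all genes lower without overlap is not given here, so nothing about the list is read from these 2. Of 10 provisional matrix ligands 3 were higher at the unadjusted p, beside 7.98% of all genes. Fn1, fibronectin, the ligand of α5β1, lay at 36.2, 50.5 and 39.1 CPM in wt and 65.3, 56.7 and 75.7 CPM in ko (0.65, SE 0.17, adjusted p = 0.177), and Postn, periostin, a ligand of αv integrins, at 192, 40.9 and 271 CPM in wt and 351, 418 and 1757 CPM in ko (2.33, SE 0.87, adjusted p = 0.322). In both genes the ko libraries lay above all wt libraries, beside 11.3% of all genes, and ko replicate 3 was highest. Fbn1, the microfibril protein fibrillin-1, had a value of 2.41 and was highest in ko replicates 1 and 2, where the fibroblast markers were also highest. With the fibroblast and endothelial covariate Fbn1 turned to -0.15. That covariate itself separated the groups, and its fit called 0.0146% of all genes, so the part of these markers was not tested.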

How the data were processed

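The deposited values are raw counts of reads per Ensembl gene, which the authors made with TopHat2 2.0.12, Bowtie 1.1 and HTSeq on mm10, per the submitters' processing notes; per the labels' protocols the libraries were TruSeq Stranded mRNA, read as single ends of 51 bp. The labels and files do not state how HTSeq treated strand or which gene annotation it used, so reads of overlapping antisense genes may be included. Reads that aligned to more than 1 place (32.4 to 40.9% of those listed), overlapped several genes or none were left out of library sizes and tests. Symbols came from a reference table (40254 of 41214 identifiers matched) and positions and exon lengths from GENCODE M21 (40340 matched).

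Counts were kept by filterByExpr, scaled by TMM and tested with edgeR 4.0.16 (glmQLFit, robust, and glmQLFTest, genotype as the only factor, 4 residual degrees of freedom) in R 4.3.3, with Benjamini-Hochberg adjustment over all genes tested. CPM are counts over TMM-scaled library sizes, and log2 fold changes are ko over wt. DESeq2 1.42.0, limma-voom 3.58.1 and the other alternatives are described in the closing section, and the tests were tried on simulated counts. Depth of 17561294 to 22659511 counts leaves little counting error except in genes under about 1 CPM, such as Lama1 and Itga9.

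Every member is accounted for; library values are given for members past a threshold with edgeR or DESeq2 or at an unadjusted p under 0.05 and for defining genes of the hemidesmosome, the basal integrins and laminin-332 (Itga6, Itgb4, Itga3, Itgb1, Col17a1, Lama3 and Lamb3), and Itga5, Itgav, Nid2, Frem2 (3 libraries), Col4a2, Col4a5 and Col4a6 were added after their values were seen. The members and the lists were chosen with earlier results of these data known. The marker lists hold 8 mural (given with the nidogens), 8 myeloid, 7 T cell, 8 hair follicle and 7 suprabasal genes measured, whose summed CPM overlapped between the genotypes, and 3 stress keratins, whose sums did not (267.6 to 313.3 in wt and 3143 to 9464 in ko).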

Additional observations from a re-analysis of the deposited data

How the results depend on the processing

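In 10 of the 35 members the sign held under all 22 alternatives that gave a value (Itgav, Itgb6, Itga5, Lama1, Lamb1, Nid1, Col4a1, Col4a2, Col4a5 and Col4a6), and in 25 it changed in at least 1. Of the alternatives 20 were planned and 2 (sex as a covariate, and leaving out wt replicate 2 and ko replicate 3 together) were added after seeing the data. The cause of the changes below was not tested unless given.

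Against 30 genes called in the plain edgeR fit there were 57 without a filter, 18 with a filter of 1 CPM in 3 libraries, 642 with DESeq2, 0 with limma-voom, 18 with the older quasi-likelihood fit, 709 with the collection covariate, 227 in the dated libraries alone, 897 with the basal covariate, 2 with the fibroblast and endothelial covariate and 62 with the sex covariate. Leaving out 1 library at a time gave 0 to 64, with 0 without any of wt replicates 1 to 3 or ko replicate 2 and 64 without ko replicate 3. Of the members, 0 were called in the plain fit and 0 with any 1 library left out. DESeq2 called 1, the collection covariate 4, the dated libraries 2 of 34 tested (beside 227 of 13812 genes) and the basal covariate 7. Of the pathway genes, also 0 in the plain fit, these called 7, 7, 2 and 11, and leaving out 1 library gave 0 to 1 (Fbn1, without ko replicate 3). The fibroblast and endothelial covariate, whose values do not overlap between the genotypes, moved the median of the keratinocyte integrins to 1.40 and of the other members to 0.99. It changed the sign of 19 of the 35 members, among them Itgb8 (0.17), Itgb5 (-0.72), Itga9 (-0.80), Nid2 (-1.39), Lama4 (-0.50), Col17a1 (1.42) and Lamb3 (1.37). Without both wt replicate 2 and ko replicate 3, 294 genes, 17 members and 10 pathway genes were called, the median of the keratinocyte integrins was -0.72, and Itga2 (-1.19), Itga6 (-1.65), Itgb1 (-0.93), Hspg2 (-0.45), Lamb2 (-0.24) and Itga1 (-0.10) turned below 0; leaving out these libraries lowers such differences by construction.

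The replicate numbers do not mark pairs in the labels, and same-numbered libraries correlated at -0.186, 0.469 and 0.67 in their deviations from the group means, and wt replicate 2 correlated best with ko replicate 1. With the replicate block 354 of 13704 genes, 2 of 35 members (Lama1 and Nid1) and 1 of 72 pathway genes were called.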

Other observations

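Several matrix genes of the pathway lists, named here after their values were seen, were lowest in wt replicate 2, as the hemidesmosome genes Col17a1 and Dst were. That library was lowest in 35 of the 72 pathway genes tested, against 30.4% of all genes. Bcam, a receptor of laminin α5, lay at 94.7, 15.7 and 132 CPM in the wt libraries and 35.5, 42.6 and 169 CPM in the ko ones, and Smoc2 at 50.4, 4.41 and 75.7 CPM in the wt libraries and 15.7, 17.2 and 69.7 CPM in the ko ones. Fras1, which forms the Fraser complex with Frem2, lay at 57.6, 13.8 and 50.6 CPM in the wt libraries and 16.6, 21.9 and 24.1 CPM in the ko ones. In ko replicate 3 Frem2 (74.2 CPM) was near its level in wt replicates 1 and 3 (75.9 and 76.2 CPM), whereas Fras1 was below both, as Col4a5 and Col4a6 were. Neither Fras1 (log2 fold change -0.96, edgeR adjusted p = 0.471) nor Frem2 (-0.40, adjusted p = 0.899) passed the test.

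Of the 10 provisional matrix ligands 5 were highest in ko replicate 3, against 24.0% of all genes. Tnc, tenascin-C, a ligand of α9β1 and αvβ6, lay at 85.1, 15.5 and 121 CPM in the wt libraries and 51.9, 57.0 and 339 CPM in the ko ones, and Tgfbi at 82.5, 10.3 and 156 CPM in the wt libraries and 45.5, 43.2 and 274 CPM in the ko ones. In both genes ko replicates 1 and 2 lay within the wt range, and neither passed (log2 fold changes of 1.01 and 0.54, edgeR adjusted p = 0.746 and 0.89). Thbs1, thrombospondin-1, was high in both libraries whose titles carry no date, at 583 CPM in the wt and 551 CPM in the ko library, against 15.3 to 110.0 CPM in the 4 dated libraries.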
